A study of Mus musculus with 4 samples.

Results

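ATP-dependent chromatin remodellers use the energy of ATP to slide, evict or exchange nucleosomes. The genes described here encode the BAF, NuRD, ISWI and INO80/Tip60 complexes and 3 further CHD-type ATPases. They were chosen by name, as every array feature whose gene symbol in the platform's annotation is one of 47 listed genes. Of these, 46 had a feature and all 46 passed the filter on dim features, against 16764 genes measured in all. Arid1a, the other listed gene, was not analysed here. The 46 genes had 100 features, of which 93 were tested. A gene is represented by its brightest feature, the one with the highest mean log2 intensity over all arrays, and 31 genes had several features, up to 5.

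The cells were mouse embryonic stem (ES) cells of the line E14, and each of 4 arrays measured RNA from cells that carried a different plasmid. In the control arm the plasmid was the empty pSuper vector or pSuper with a hairpin against luciferase, a gene that mouse cells do not have. The Mtf2 RNAi arm held pSuper with Mtf2 hairpin 1 and pSuper with Mtf2 hairpin 3. All 4 cultures were transfected with lipofectamine, put into puromycin after 1 day and kept in it for 2 days (1 mg/ml, as the labels give it), which the controls thus received too. Each plasmid had 1 array here, so there was no replicate of a plasmid, and the p-values below reflect the spread among these 4 arrays alone, which can be technical. Values in pairs are given as empty vector then luciferase for the controls, and as hairpin 1 then hairpin 3 for Mtf2 RNAi. Bulk RNA cannot tell fewer cells of a type from less RNA per cell.

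Mtf2 is a Polycomb-like protein that helps to bring the repressive complex PRC2 to DNA rich in CG dinucleotides. BAF works against Polycomb repression at many genes, and its ES cell form is built around the ATPase Smarca4 (Brg1). NuRD joins a CHD-type ATPase to histone deacetylases and is needed for ES cells to leave self-renewal in an orderly way. ISWI complexes space nucleosomes evenly, and the INO80 and Tip60-p400 complexes act on nucleosomes that hold the histone variant H2A.Z. Tip60-p400 is needed for normal ES cell identity.

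Intensities are given in scaled units, in which the 75th percentile of each array was set to 22.98. Values under 1 unit were raised to 1, which is called the floor below, before log2 was taken. Mtf2 itself was read by 4 features. For 3 of these the hairpin arrays both lay below the controls, at 0.474, 0.491 and 0.583 of the control level. The brightest feature had overlapping arms, with 174.8 and 737.2 units in the controls against 501.1 and 335 with the hairpins. None of the 4 passed the test (limma, adjusted p of 0.868 to 0.954). All 9 measured ES cell markers of a list of 10 lay above the level of the median feature (6.86 units), with summed intensities of 11368 and 9258 units in the controls and 11707 and 11710 with Mtf2 RNAi. Of these 9, 6 read higher and 3 lower with Mtf2 RNAi. Both arrays lay above both controls for Nanog and Klf4 and below them for Esrrb and Utf1, and none passed the test. Of 10 fibroblast and feeder cell markers 4 lay above the level of the median feature. Of the 10, 9 read lower with Mtf2 RNAi, 4 of them with both arrays below both controls, and none passed the test. The other, S100a4, had both arrays above. Over all genes 15.1% had both arrays above both controls and 18.3% had both below. Their sum was 912.8 and 722.1 units in the controls and 732.2 and 640.9 with Mtf2 RNAi, most of it from vimentin, and Postn, Dcn, Lum and Col3a1 stayed under 2 units on every array. The part of other cells in the results below was not tested. On the empty-vector array 1681 positions had neighbours that deviated by over 0.5 log2, nearly all of them low and along 1 edge, against 8 to 23 on the other arrays. No brightest feature of a remodeller gene lay at such a position, and 2 of the 100 features did.

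The remodeller genes were centred near no difference between the arms. The median difference, Mtf2 RNAi minus control, was -0.0025 log2 over the 46 genes, with 23 higher and 23 lower, and -0.0083 over all 16764 genes. Of the 46, 38 differed by less than 0.5 log2 and 25 by less than their own standard error (SE). No remodeller feature passed the test between arms (0 of 93, limma with Benjamini-Hochberg adjustment over 35102 features, threshold 0.05), as was true of all features (0%). An unadjusted p under 0.05 was reached by 5 member features (5.38%), against 4.18% of all features. The adjusted p ranged from 0.868 to 0.999 over the 46 genes. At 2 arrays an arm, a p that misses the threshold does not show that a gene was unaffected.

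In 12 genes both Mtf2 RNAi arrays lay above both control arrays, and in 9 both lay below. These are 26.1% and 19.6% of the 46 genes, beside 15.1% and 18.3% of all genes, and they carry no test. Above the level of the median feature the shares were 25.6% and 16.3% of the remodeller genes, beside 17.2% and 18.6% of all genes there. Over features they were 21.5% and 19.4% of the remodeller features, beside 14.7% and 17.5% of all features. After quantile normalization the counts were 9 and 9, since Phf10, Ruvbl1 and Smarcb1 then had overlapping arms, and without scaling Chd1 had them. Arms are called separate below where they do not overlap in this way. With the empty-vector array left out the counts were 19 and 15, but with 1 control array the same counts over all genes were 31.7% and 31.4%. With the luciferase array left out they were 18 and 20, beside 27.9% and 39%. Without hairpin 1 there were 14 lower and without hairpin 3 there were 16, beside 32.8% and 32.1% of all genes.

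**Figure D1:**
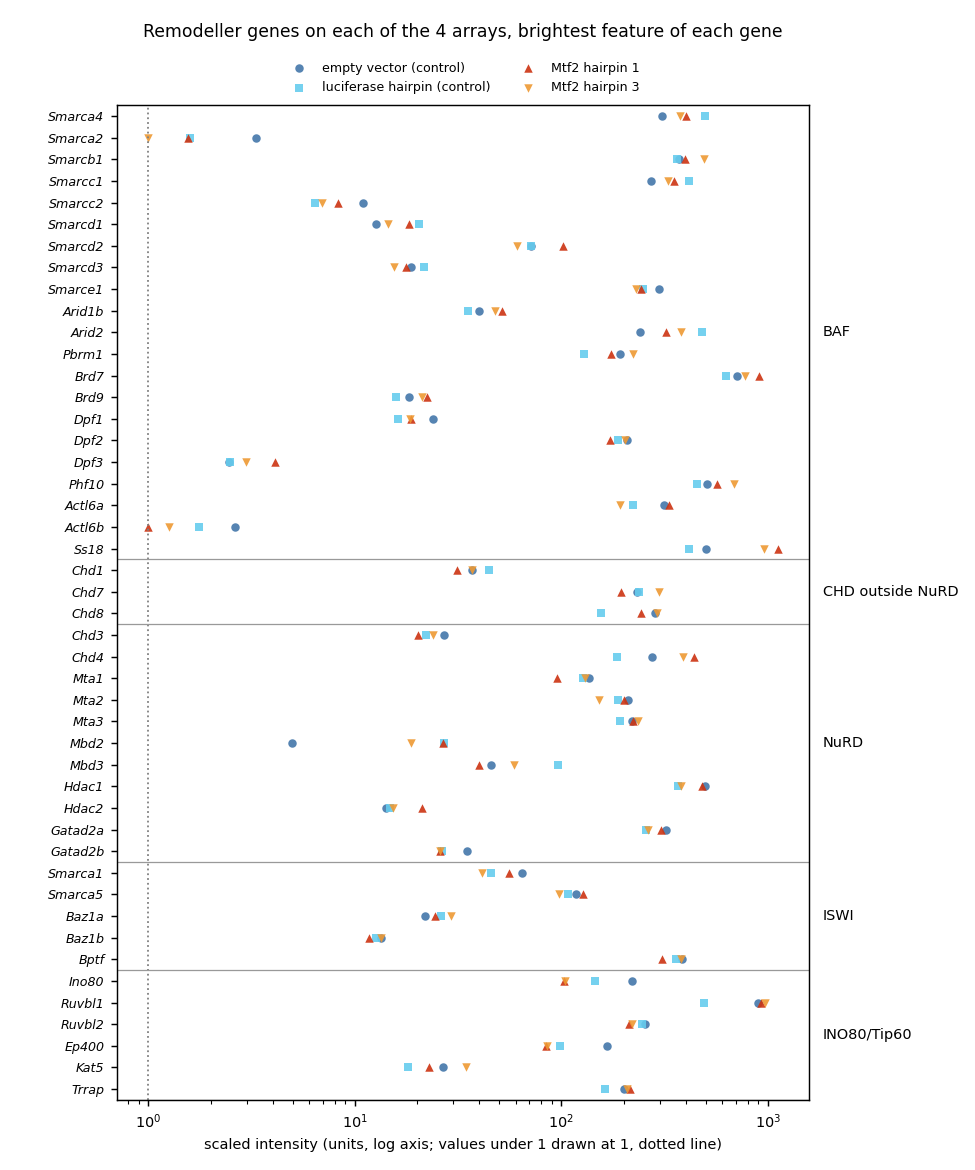
Scaled intensity (log axis) of the brightest feature of each of the 46 remodeller genes on each of the 4 arrays, 1 point an array, grouped by complex. Most genes have their 4 points close together, Mbd2 has the empty-vector array far below the rest, and Smarca2, Dpf3 and Actl6b lie near the floor of 1 unit.

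The ATPases of BAF gave no common value. Smarca4, the ATPase of the ES cell complex, read 307.4 (empty vector), 495.6 (luciferase), 403.6 (hairpin 1) and 374.1 units (hairpin 3). Both Mtf2 RNAi values lay between the controls, and the difference was -0.0066 log2 (SE 0.31). A second Smarca4 feature gave 0.91 higher (SE 0.40), with 184.9 and 238.2 units in the controls, 565.3 with hairpin 1 and 274.2 with hairpin 3. The third, near the background, gave 0.065. Smarca2 (Brm), the alternative ATPase, was near the floor at 3.30 and 1.58 units in the controls and 1.55 and 0.38 with the hairpins. The size of its difference, -0.88 log2 (SE 0.45), thus depends on the floor, and it was -0.35 without the empty-vector array.

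The scaffold subunit Smarcc1 differed by 0.0088 log2 (SE 0.29) and its paralog Smarcc2 by -0.14 (SE 0.41). Smarcb1, a small core subunit, had separate arms, at 372.4 and 361.2 units in the controls and 397.8 and 491.4 with the hairpins (0.27 log2, SE 0.24). The HMG-box subunit Smarce1 read 295.7 and 247.9 units in the controls and 244.2 and 228.8 with the hairpins (-0.20 log2, SE 0.23), and its second feature read 0.11 higher. Smarce1 was thus lower on both Mtf2 RNAi arrays by a small margin, on 1 of its 2 tested features. Of the BAF60 subunits, which link BAF to transcription factors, Smarcd1 differed by 0.0082 (SE 0.36) and Smarcd2 by 0.14 (SE 0.31). Smarcd3, the form of heart and muscle, differed by -0.28 (SE 0.27), with 18.6 and 21.5 units in the controls against 17.6 and 15.5. Of these core subunits, those with separate arms on the brightest feature differed by at most 0.28 log2, about the size of their SE. The second Smarcc1 feature also had separate arms, at -0.55 log2 (SE 0.36). It read 9.64 and 6.90 units in the controls and 5.22 and 5.96 with the hairpins.

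Of the subunits that set the type of BAF complex, Arid1b, Brd7, Phf10 and Brd9 had separate arms upwards on their brightest features, Pbrm1 and Arid2 had overlapping arms, and none passed the test. Arid1b, the DNA-binding subunit that replaces Arid1a in canonical BAF, read 39.8 and 35.2 units in the controls and 51.6 and 47.7 with the hairpins (0.41 log2, SE 0.23), but its other feature read -0.15 (SE 0.23). In PBAF, the bromodomain subunit Brd7 read 706 and 624.9 units in the controls and 903.8 and 775.3 with the hairpins (0.33 log2, SE 0.25), and its other feature read 0.37. The PHD finger subunit Phf10, also of PBAF, read 507.4 and 455.6 units in the controls and 568.4 and 686.3 with the hairpins (0.38 log2, SE 0.24). Brd9, the bromodomain subunit of the non-canonical complex, read 18.3 and 15.8 units in the controls and 22.4 and 21.1 with the hairpins (0.35 log2, SE 0.27). These 4 differences were 1 to 2 SE.

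The PBAF subunits Pbrm1 and Arid2 gave no single direction. Pbrm1, which holds several bromodomains, read 0.32 higher (SE 0.29) on its brightest feature with overlapping arms, and -0.094, -0.43 and -0.62 on the other 3. Arid2, the DNA-binding subunit of PBAF, differed by 0.038 (SE 0.39). Its controls were 1.008 log2 apart, at 239.9 and 482.4 units, and both Mtf2 hairpin arrays lay between them.

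Ss18, a subunit of canonical and non-canonical BAF that is known from its fusion in synovial sarcoma, had the largest difference of all 46 brightest features. It read 502.9 (empty vector), 417.1 (luciferase), 1117 (hairpin 1) and 955.6 units (hairpin 3). The arms were well apart, 2.26-fold (1.17 log2, SE 0.25, limma adjusted p = 0.868 over all features), and no single array decided this, since leaving out each array in turn gave 1.04 to 1.31. It rests on 1 feature, the only one of this gene.

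Of the BAF subunits that exchange when neurons form, Actl6b and Dpf3 were read near the floor and Actl6a, Dpf1 and Dpf2 above the level of the median feature. Actl6b (BAF53b), the neuronal actin-like subunit, read 2.62 and 1.75 units in the controls, 1.26 with hairpin 3 and below the floor with hairpin 1 (-0.93 log2, SE 0.31). Its other feature read -0.20, with arms that overlap. Actl6a, its counterpart in stem cells, differed by -0.070 (SE 0.36), at 314.3 and 223.1 units in the controls and 332.8 and 191.3 with the hairpins. Dpf3, a PHD finger subunit, read 2.45 and 2.50 units in the controls and 4.08 and 2.98 with the hairpins (0.50 log2, SE 0.34). With the floor at 4 units the Dpf3 difference was 0.015 and its arms overlapped. Dpf1 differed by -0.089 (SE 0.31) and Dpf2 by -0.081 (SE 0.22), both with overlapping arms. Over the 21 measured BAF genes the median was 0.0088 log2, with 12 higher and 9 lower. Of the 21, 7 were separate upwards (33.3%) and 4 downwards (19.05%), beside 15.1% and 18.3% of all genes.

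**Figure D2:**
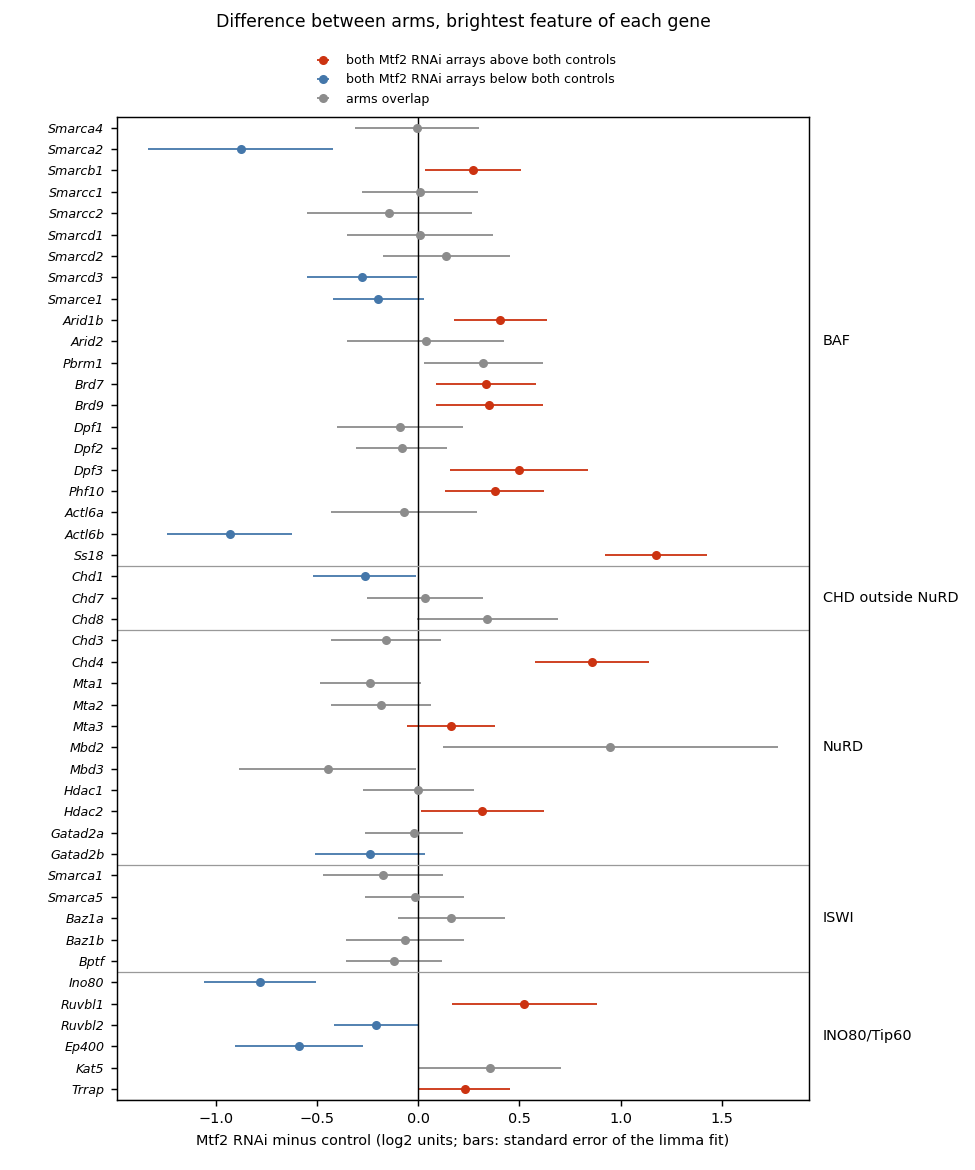
Mtf2 RNAi minus control in log2 units for the brightest feature of each remodeller gene, with the SE of the limma fit as bars, coloured by whether both Mtf2 RNAi arrays lie above (12 genes), below (9 genes) or among the control arrays. Ss18 and Chd4 stand highest among genes with separate arms, and Actl6b, Smarca2 and Ino80 lowest.

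In NuRD the ATPase Chd4 read higher with both hairpins. It gave 275.8 (empty vector), 186.5 (luciferase), 437.5 (hairpin 1) and 386.8 units (hairpin 3). The arms did not overlap, and the difference was 0.86 log2 (1.81-fold, SE 0.28, limma adjusted p = 0.868). Its other features read 0.56 higher (SE 0.26), at 14.91 and 14.98 units against 23.4 and 20.7, and 0.11 higher (SE 0.36), the last with hairpin 1 below both controls. Leaving out each array in turn gave 0.58 to 1.14 on the brightest feature. Chd3, the alternative ATPase, differed by -0.16 (SE 0.27), with 27.1 and 22.1 units in the controls and 20.25 and 23.83 with the hairpins, and its other features read 0.15 and 0.060.

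The MTA scaffold proteins, which hold the deacetylases, had small differences on their brightest features. Mta1 read -0.24 (SE 0.25) and Mta2 -0.18 (SE 0.25). Mta3 had separate arms, at 219.4 and 192 units in the controls and 223.2 and 236.3 with the hairpins (0.16 log2, SE 0.22). Its other features read 0.84 (SE 0.38) and 0.85 (SE 0.88), the last at a deviating edge position of the empty-vector array, which read 0.31 units there.

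Of the deacetylases, Hdac1 differed by 0.0015 log2 (SE 0.28). Hdac2 read 14.1 and 14.8 units in the controls and 21.2 and 15.3 with the hairpins, so that its separate arms (0.32 log2, SE 0.30) rest mainly on hairpin 1. The GATA zinc finger subunit Gatad2b read 35.1 and 26.3 units in the controls and 25.7 and 25.8 with the hairpins (-0.24 log2, SE 0.27). The luciferase array lay just above both hairpins, and its other features read -0.94 (SE 0.37) and 0.23. Gatad2a differed by -0.021 (SE 0.24) and by -0.43 on its second feature.

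The subunits Mbd2 and Mbd3, which exclude each other in NuRD, were read less firmly because their controls were far apart. Mbd2 read 4.94 (empty vector), 27.1 (luciferase), 26.6 (hairpin 1) and 18.7 units (hairpin 3). The empty-vector array alone was low, and the difference of 0.95 log2 (SE 0.83) was -0.28 without it. Mbd3, the form needed for ES cell differentiation, read 45.6 (empty vector), 96.2 (luciferase), 40.1 (hairpin 1) and 58.9 units (hairpin 3). Here the luciferase array alone was high, and the difference of -0.45 (SE 0.43) was 0.091 without it. Over the 11 NuRD genes the median was -0.021 log2, with 5 higher and 6 lower. Of the 11, 3 were separate upwards (27.3%) and 1 downwards (9.09%), beside 15.1% and 18.3% of all genes.

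The CHD genes outside NuRD had a median of 0.034 log2 over 3 genes, which was -0.28 without hairpin 3 and 0.34 without hairpin 1. Chd1, which ES cells need for open chromatin, read 36.87 and 44.8 units in the controls and 31.1 and 36.85 with the hairpins (-0.26 log2, SE 0.25). Its arms were separate only by the closeness of the empty vector and hairpin 3, and its other features read -0.37 and 0.19. Chd7, which acts at enhancers and is mutated in CHARGE syndrome, read 232.3 and 236.5 units in the controls, 193.7 with hairpin 1 and 297.5 with hairpin 3 (0.034 log2, SE 0.28). Its dim features read 0.62 (SE 0.36) and 0.73 (SE 0.24), both with separate arms. Chd8, a regulator of Wnt target genes, read 283.1 and 155.8 units in the controls and 243.9 and 290.4 with the hairpins (0.34 log2, SE 0.35).

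On the brightest features no ISWI gene had separate arms, and all 5 lay within 1 SE of 0. Smarca5 (Snf2h), the main ISWI ATPase of ES cells, read 117.3 (empty vector), 107.9 (luciferase), 127.5 (hairpin 1) and 96.9 units (hairpin 3) (-0.017 log2, SE 0.24). A Smarca5 feature of nearly the same brightness read -0.32 (SE 0.43), at 189.5 and 82.3 units in the controls and 96.1 and 104.2 with the hairpins. Further Smarca5 features read 0.075 (SE 0.21) and -0.20 (SE 0.35), and the last is described below. Smarca1 (Snf2l), the other ISWI ATPase, read 64.5 and 45.7 units in the controls and 55.8 and 41.5 with the hairpins (-0.17 log2, SE 0.30). The partner subunits Baz1a of the ACF complex, Baz1b of the WICH complex and Bptf of the NURF complex differed by 0.16 (SE 0.26), -0.066 (SE 0.29) and -0.12 (SE 0.24). In each of the 5 genes the Mtf2 hairpin arrays overlapped the controls. The median was -0.066 log2, with 1 gene higher and 4 lower, and the largest distance from 0 was 0.17. With the mean over the features of each gene the median was 0.16, a mean that includes the Smarca5 and Smarca1 features described below on which the empty-vector array was low.

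INO80/Tip60 had the highest share of genes with separate arms on the brightest feature, 5 of 6 (83.3%). The share was 11 of 21 in BAF and 33.3% of all genes in either direction. Among 26 further INO80, SRCAP and Tip60 subunits, described below, it was 23.1%. One of the 5, Ruvbl1, had overlapping arms after quantile normalization, and both Ruvbl1 and Ep400 had them with the mean over the features of a gene. The directions were mixed, with 2 higher and 3 lower, and the median was 0.010 log2. Ino80, the ATPase of its complex, read 218.8 (empty vector), 145.2 (luciferase), 102.7 (hairpin 1) and 104.6 units (hairpin 3) (-0.78 log2, SE 0.28, limma adjusted p = 0.868). Both hairpin arrays lay below both controls and close to each other. Its other features read -0.20 (SE 0.30) and -0.78 (SE 0.41), the last on a dim feature at 6.68 and 5.14 units in the controls and 2.69 and 4.30 with the hairpins. Leaving out each array in turn gave -1.08 to -0.49 for the brightest feature.

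Ep400 (p400), the ATPase of the Tip60 complex, read 166 and 98.1 units in the controls and 84.55 and 85.3 with the hairpins (-0.59 log2, SE 0.31). Its other features read -0.088 and 0.53, so this direction was that of 2 of 3 features. The empty-vector array alone stood apart, and the difference was -0.21 without it. Trrap, the large scaffold of the Tip60 complex, read 200.3 and 163.2 units in the controls and 215.9 and 208 with the hairpins (0.23 log2, SE 0.23). Its other features read 0.96 (SE 0.47) and -0.086. The acetyltransferase Kat5 (Tip60) differed by 0.36 (SE 0.35) with overlapping arms, at 26.7 and 18.1 units in the controls and 22.85 and 34.59 with the hairpins.

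Ruvbl1 and Ruvbl2 encode AAA+ ATPases that form 1 ring shared by the INO80 and Tip60 complexes. Ruvbl1 read 896.1 (empty vector), 488.1 (luciferase), 931.2 (hairpin 1) and 972.5 units (hairpin 3). The luciferase array stood apart and the other 3 were close, so that the difference of 0.53 log2 (SE 0.36) was 0.087 without it. Ruvbl2 read 255.3 and 245.8 units in the controls and 213.3 and 220.3 with the hairpins (-0.21 log2, SE 0.21). Ruvbl1 and Ruvbl2 thus lay in opposite directions by less than 2 SE each, and the second Ruvbl1 feature read -0.21.

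In all 6 INO80/Tip60 genes the luciferase array read below the empty-vector array on the brightest feature. It did so in 34 of the 46 remodeller genes (73.9%) and in 54.9% of all genes. Over features the shares were 60.2% of the remodeller features and 54.1% of all features. Among the other INO80/Tip60 features, luciferase read above the empty vector on a feature each of Ruvbl1 (0.81 log2), Ep400 (0.30) and Trrap (1.06), and below it on the rest. In 5 of the 6 the Mtf2 hairpin arrays lay within 0.1 log2 of each other on the brightest feature, against 19.2% of all genes. This did not hold on their other features. There, hairpin 3 minus hairpin 1 was 0.57 and 0.67 (Ino80), 0.82 (Ruvbl1), 0.90 and -0.38 (Ep400) and -0.55 and 0.32 (Trrap). These shares are descriptions of single arrays and have no test.

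Within the Mtf2 RNAi arm the median distance between hairpins was 0.24 log2 in the remodeller genes and 0.32 in all genes. It was 0.31 in the genes above the level of the median feature. None of the 46 differed by 1 log2 or more between hairpin 3 and hairpin 1, against 7.6% of all genes and 4.82% of the genes above the level of the median feature. The widest gap on the brightest features was -0.80 for Actl6a. Among all 93 tested features 3 had hairpins 1 log2 or more apart (3.23%), against 7.9% of all features. They were further features of Actl6a (1.54, at 18.1 and 52.9 units), Arid2 (-1.13) and Smarca4 (-1.04). Between the luciferase hairpin and the empty vector 4 of the 46 genes were 1 log2 or more apart (8.7%), against 9.66% of all genes. These were Mbd2 (2.45), Mbd3 (1.08), Arid2 (1.008) and, near the floor, Smarca2 (-1.06). The median distance between the arms, 0.23 log2, was no larger than the median distance between hairpins (0.24) or between controls (0.29). The arms average 2 arrays each, whereas the distances within an arm are between single arrays. Dim features are more variable, and 43 of the 46 genes (93.5%) lay above the level of the median feature, against 61.8% of all genes.

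**Figure D3:**
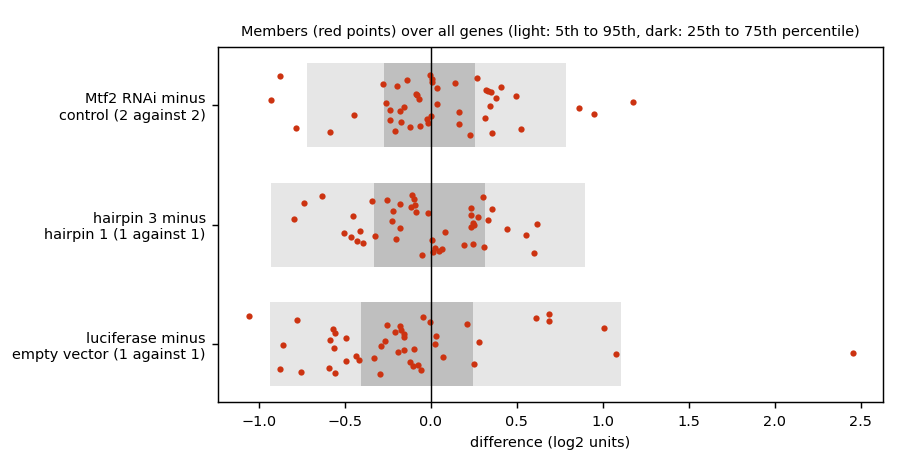
Differences in log2 units between the arms (2 arrays against 2), between the Mtf2 hairpins and between the controls (1 array against 1). Red points are the 46 remodeller genes, and bars show the 5th to 95th and 25th to 75th percentiles of all 16764 genes. Outside the light bar lie 6 remodeller genes between the arms, 0 between hairpins and 2 between the controls. By its definition this bar leaves out the lowest 5% and the highest 5% of all genes.

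Different features of the same remodeller gene often disagreed. Of 28 genes with several tested features, 9 had all features on the same side (32.1%), against 40.1% of 6861 such genes on the array. The range over the features of a gene had a median of 0.58 log2, about the same as over all such genes (0.52), and passed 1 log2 in 5 of the 28. Of the genes with at least 3 tested features, Chd4, Chd7 and Mta3 had all of them higher and Ino80 alone had all of them lower. The brightest Chd7 feature was higher by only 0.034 log2 (SE 0.28), with overlapping arms, and its other features were dim. For Mta3, 1 feature lay at a deviating position of the empty-vector array. The genes with 2 features on the same side were Smarca2, Actl6b and Gatad2a, all lower, and Smarcd2 and Brd7, both higher.

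In 9 genes some feature differed in sign from the brightest by over 0.5 log2. Among those, Smarca5 had a feature at 3.16 log2 (SE 2.01), which read 0.42 units with the empty vector and 82.83, 84.46 and 78.05 units on the other arrays. Smarca1 had one at 1.39 (SE 1.09), at 3.40 units with the empty vector and 35.12, 26.15 and 31.49 on the others, at a deviating position. In both, the empty-vector array alone was low. The other 8 such features belonged to Smarca4, Arid1b, Pbrm1, Ruvbl1 and Ep400, with the values above, to Smarcc1 (-0.55, SE 0.36) and to Chd8 (-0.27, SE 0.32). Which feature of a gene reads its main transcript was not tested.

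**Figure D4:**
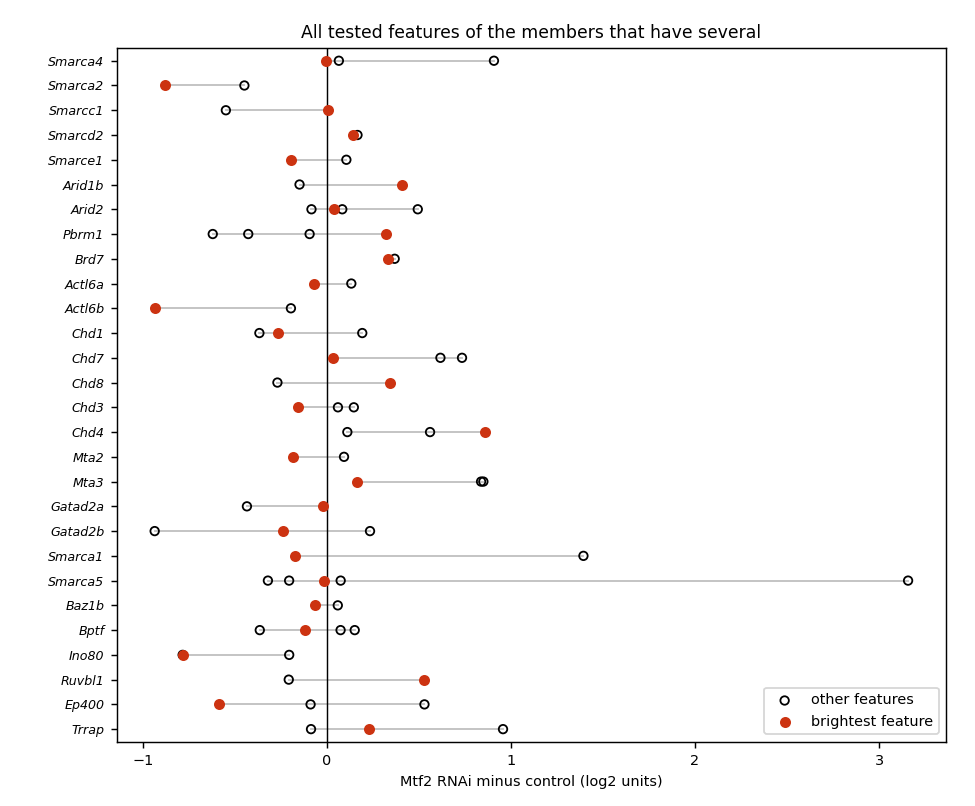
Mtf2 RNAi minus control in log2 units for every tested feature of the 28 remodeller genes that have several, with the brightest feature filled and grey lines for the range. Chd4, Chd7 and Mta3 lie wholly above 0, Chd7 by only 0.034 on its brightest feature, and Ino80 lies wholly below. The far points of Smarca5 and Smarca1 are features on which the empty-vector array was low.

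Since Mtf2 and its relatives bind DNA rich in CG dinucleotides, the promoters of the remodeller genes were examined for the letters CG. RefSeq promoter sequences (GRCm38.p6, 250 bases before to 50 after the start listed first) were at hand for 36 of the 46 genes. CG reads the same on both strands and was counted once. It occurred 4 to 62 times in each of the 36 windows, with a median of 30.5, against 17 in the 13469 genes that have both a window and a tested feature. It occurred at least once in 97.2% of those. By a common rule for CpG islands (observed over expected CG above 0.6 and over 50% G and C) 32 of the 36 promoters were CpG-rich (88.9%), against 55.5% of those genes. The windows below the rule were those of Ruvbl1, Ruvbl2, Smarca1 and Smarcd2. The genes compared with were not matched for level. Of the 46 remodeller genes 93.5% lay above the level of the median feature, against 61.8% of all genes. Whether the higher CG content goes with level was not tested. The match is of letters alone, and binding of Mtf2 was not measured here.

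The 200 bases before the start are printed for 3 genes, with each CG in capitals. Chd4 and Ino80 are shown because, above the level of the median feature, among genes with several features that all lay on the same side, they had the largest difference in each direction. Actl6b is shown as a gene with a CG-rich promoter that was read near the floor. Chd4 lies at chr6:125095781-125095980 on the plus strand with 12 CG, Ino80 at chr2:119477688-119477887 on the minus strand with 23, and Actl6b at chr5:137553346-137553545 on the plus strand with 14.
Chd4: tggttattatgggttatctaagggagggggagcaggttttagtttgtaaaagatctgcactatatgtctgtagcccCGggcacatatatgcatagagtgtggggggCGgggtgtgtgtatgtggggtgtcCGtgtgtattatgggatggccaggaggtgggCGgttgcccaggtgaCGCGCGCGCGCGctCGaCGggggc
Ino80: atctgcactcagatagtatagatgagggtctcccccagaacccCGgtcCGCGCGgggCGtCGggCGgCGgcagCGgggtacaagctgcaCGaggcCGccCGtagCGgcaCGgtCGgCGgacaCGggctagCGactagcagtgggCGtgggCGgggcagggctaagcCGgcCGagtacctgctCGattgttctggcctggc
Actl6b: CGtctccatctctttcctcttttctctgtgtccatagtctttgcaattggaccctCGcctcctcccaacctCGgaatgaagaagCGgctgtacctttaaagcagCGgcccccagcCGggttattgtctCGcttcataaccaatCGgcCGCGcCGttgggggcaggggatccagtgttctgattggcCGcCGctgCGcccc

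Further genes of the same families were also centred near no difference. Of 60 listed genes 59 were measured, with a median difference of 0.048 log2, 33 higher and 26 lower. None passed the limma test over all features, and 1 had an unadjusted limma p under 0.05. Separate arms were found upwards in 10 and downwards in 11, which are 16.9% and 18.6%, beside 15.1% and 18.3% of all genes. Smarcad1, an ATPase that helps to restore silent chromatin after replication, read 104.9 and 94 units in the controls and 51.3 and 55.4 with the hairpins (-0.90 log2, SE 0.22, limma adjusted p = 0.868). Both hairpin arrays lay well below both controls. Among the other SNF2-type ATPases, Smarcal1 and Hltf, which act at stalled replication forks, read 0.51 (SE 0.22) and 0.57 higher (SE 0.28) with separate arms, and Chd1l read -0.65 (SE 0.40). That list had 4 of 12 genes separate upwards (33.3%) and 3 downwards (25%), with a median of -0.20.

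The counts of separate arms in the lists below stand beside 15.1% upwards and 18.3% downwards of all genes. Of 26 further INO80, SRCAP and Tip60 subunits, 2 were separate upwards (7.69%) and 4 downwards (15.4%), with a median of 0.050. Among those downwards were Znhit1 of SRCAP (-0.57, SE 0.26), Brd8 of Tip60 (-0.40, SE 0.21) and the deubiquitinase Uchl5 of INO80 (-0.42, SE 0.24). Actr5 of INO80 read 0.66 (SE 0.47) with overlapping arms. The largest difference of the 59 genes, named after its value was seen, was that of Epc2 of Tip60 (0.92, SE 0.74), whose arms overlapped, at 61.0 and 274.9 units in the controls and 194.6 and 309.6 with the hairpins. Of 8 further NuRD and CHD genes (median -0.040), 1 was separate upwards, Chd6 at 0.27 (SE 0.30). The 3 separate downwards were the histone chaperone Rbbp4 at -0.50 (SE 0.32), Chd5 at -0.53 (SE 0.35) and Chd9 at -0.44 (SE 0.36). Rbbp7 read 0.43 (SE 0.34) with overlapping arms. Of 6 further ISWI subunits (median 0.22), 2 were separate upwards, Chrac1 at 0.40 (SE 0.28) and Baz2b at 0.31 (SE 0.28). Separate downwards was 1, Cecr2 at -0.19 (SE 0.21), and Rsf1 read 0.70 (SE 0.47) with overlapping arms. Of 7 measured BAF subunits outside the main list (median 0.33), 6 read higher and 1 had separate arms, Bcl7a at 0.29 (SE 0.24). Arms overlapped for Bicral at 0.39 (SE 0.34), Bcl7c at 0.33 (SE 0.37) and Ss18l1, the neuronal paralog of Ss18, at 0.29 (SE 0.33).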

How the data were processed

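The deposited values are one-colour array intensities on a linear scale, 1 per feature (45220 features, 4 arrays), from Cy3-labelled cRNA made from total RNA with an Agilent kit, per the labels' protocols. Values run below 0, so a background had been subtracted before deposit. How the images were scanned and normalized is not given in the sources used here. Deposited medians were 2.92 to 3.22 units. The number of arrays limits the precision.

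All arrays were brought to the same 75th percentile, and log2 was taken after a floor of 1 unit was set. The 10118 features (22.4%) at this floor on all arrays were left out. Mtf2 RNAi and control were compared in R 4.3.3 with limma 3.58.1 (lmFit, then eBayes with trend). P-values were adjusted over 35102 features by Benjamini and Hochberg. A run on simulated data, with normally distributed noise and no floor or array defect, checked only that added changes were returned at about their size. How many of those changes passed the test is not reported here. Positions were called deviating where the median of the neighbours in a square of 7 by 7 features (in 532 rows of 85) passed 0.5 log2. Gene names come from the platform annotation of 2016 (33653 features with 1 symbol, 56 with several, 11511 not listed) and chromosomes and promoters through RefSeq (GRCm38.p6). Array values are printed for members with separate arms and for ATPases, and other members by their difference, with further values where 1 array stood apart. The members and the lists of other genes were chosen with earlier results of these data known. Alternatives were other scalings, floors, filters and feature choices, and each array left out. No slide or scan batch was given in the sources used here.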

Additional observations from a re-analysis of the deposited data

How the results depend on the processing

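Under every alternative run, no remodeller feature passed the limma test. Over all features 36 passed when those at the floor on every array were kept (smallest adjusted p = 0.0167), against 0 otherwise. All 36 were also in the test without them, averaged at most 1.46 units, and included no remodeller gene, and the cause was not tested. Leaving out each array in turn gave 15 to 19 genes with separate arms upwards and 14 to 20 downwards, where an arm of 1 array separates more easily and its spread is taken from the other arm. The medians then ran from -0.040 to 0.25 log2 for BAF, -0.19 to 0.081 for NuRD, -0.10 to 0.041 for ISWI, -0.088 to 0.098 for INO80/Tip60 and -0.28 to 0.34 for the CHD genes outside NuRD. The ISWI median was -0.046 without scaling, -0.11 after quantile normalization and 0.16 with the mean over a gene's features, and the NuRD median was -0.14 after quantile normalization. Quantile normalization moved the median of all genes to -0.037.

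The sign turned without scaling for Smarca4 (0.014) and Smarca5 (0.0029). After quantile normalization it turned for Arid2 (-0.025), Hdac1 (-0.11), Smarcc1 (-0.031) and Smarcd1 (-0.0081). With the mean over features it turned for Actl6a (0.031), Chd3 (0.017), Pbrm1 (-0.20), Smarca1 (0.61), Smarca4 (0.32), Smarca5 (0.54) and Smarcc1 (-0.27). No sign turned with the floor at 4 units, with only features above the median level, with all features kept, or without deviating positions, among the genes still measured, though Dpf3 came to 0.015 with the floor at 4 units. Separate arms were lost without scaling by Chd1, after quantile normalization by Phf10, Ruvbl1 and Smarcb1, and with the mean over features by Chd1, Ep400, Mta3, Ruvbl1, Smarca2 and Smarce1. Ranges in brackets below run from the lowest to the highest value with 1 array left out. Leaving out each array kept the sign of 26 genes. Those that moved by less than 1.5 times from the value on all 4 arrays include Chd4 (0.58 to 1.14) and Actl6b (-1.22 to -0.64). The other 19 of the 26 moved by over 1.5 times from that value. Of these, the value nearest 0 came without the empty vector for Smarca2 (-1.41 to -0.35), Smarce1 (-0.32 to -0.069), Ep400 (-0.97 to -0.21), Ino80 (-1.08 to -0.49), Gatad2b (-0.45 to -0.029), Chd3 (-0.30 to -0.0100) and Baz1a (0.038 to 0.29). It came without luciferase for Chd1 (-0.40 to -0.12), Smarcd3 (-0.38 to -0.17), Mta3 (0.066 to 0.26), Pbrm1 (0.038 to 0.61), Ruvbl1 (0.087 to 0.96) and Trrap (0.081 to 0.38). It came without hairpin 3 for Kat5 (0.056 to 0.65), Smarcb1 (0.12 to 0.42) and Phf10 (0.24 to 0.51), and without hairpin 1 for Dpf3 (0.27 to 0.73), Hdac2 (0.084 to 0.55) and Mta1 (-0.46 to -0.015). In the other 20 the values ran from -0.47 to 0.33 (Actl6a), -0.47 to 0.54 (Arid2), -0.16 to 0.031 (Baz1b), -0.28 to 0.033 (Bptf), -0.28 to 0.34 (Chd7), -0.089 to 0.77 (Chd8), -0.37 to 0.19 (Dpf1), -0.20 to 0.035 (Dpf2), -0.19 to 0.14 (Gatad2a), -0.22 to 0.22 (Hdac1), -0.28 to 2.17 (Mbd2), -0.99 to 0.091 (Mbd3), -0.39 to 0.023 (Mta2), -0.42 to 0.075 (Smarca1), -0.35 to 0.34 (Smarca4), -0.22 to 0.18 (Smarca5), -0.30 to 0.32 (Smarcc1), -0.53 to 0.25 (Smarcc2), -0.34 to 0.35 (Smarcd1) and -0.23 to 0.51 (Smarcd2). The cause of these turns was not tested. No paired analysis was possible because the hairpin numbers name constructs and the controls carry none.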
